A study of Homo sapiens with 9 samples.

Results

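Vehicle-treated MDA-MB-231 cells made up 3 of the 9 samples of a study on rimonabant and TXX-1-10, and were chosen as the libraries whose labels give DMSO, the vehicle, as the treatment. MDA-MB-231 is an established human triple-negative breast cancer cell line, although the labels enter its cell type as breast cancer tissue. The cells came from a cell repository and were grown in DMEM with serum. Polyadenylated RNA was sequenced, and whether the 3 libraries came from separate cultures is not given in the sources used here, so the spread between them may be technical. A single line stands for its own lineage only, and the levels below describe cells exposed to vehicle, not untreated cells.

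Breast cancer cells are grouped by the receptors and keratins they express. Luminal cells keep oestrogen receptor and simple epithelial keratins, basal cells keep stratified keratins and p63, and mesenchymal or claudin-low cells lose cell junctions and express vimentin and ZEB factors. The triple-negative class is defined by low oestrogen receptor, progesterone receptor and ERBB2, and the levels of these genes, of growth factor receptors and of oncogenes in vehicle-treated cells are the reference against which a compound is read.

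The library totals, computed back from the deposited counts and FPKM, were 17078370, 17245379 and 17221591 in vehicle replicates 1, 2 and 3. Levels are given as FPKM, the reads on a gene scaled by gene length in kilobases and by that total. The length is 1 fixed value per gene, whichever of its transcripts is expressed, so ranks and ratios between genes are approximate. The gene lists as used here end at different points of a common order, with 27130, 9398 and 15925 genes. Therefore 9398 genes have 3 values and are given as mean ± SD (n = 3), 6527 genes have values in vehicle replicates 1 and 3 only and are given as 2 values, and 11205 genes have a value in vehicle replicate 1 only. The 9398 common genes held 97.5% of the listed counts in vehicle replicate 1 and 97.6% in vehicle replicate 3. In vehicle replicate 2 they are the whole list. No test between groups was made, since all 3 samples are of 1 group.

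Among the 9398 genes, 9350 had a mean FPKM of at least 1, 4608 of at least 10, 341 of at least 100 and 21 of at least 1000. These counts stop where the list of vehicle replicate 2 ends. A further 2714 genes, listed in vehicle replicates 1 and 3 only, had both values at least 1. The 10 highest genes in each library held 22.3% ± 0.188 of the summed FPKM, the 100 highest 40.9% ± 0.323 and the 1000 highest 67.3% ± 0.214. Of 15880 protein-coding genes listed in vehicle replicate 1, 10523 (66.3%) reached an FPKM of 1 in every library that lists them. A further 2246 (14.1%) had 3 counts or fewer in every library that lists them, and 1090 of these had 0. The median protein-coding gene had an FPKM of 3.67 in vehicle replicate 1, and 66.3% is the share against which the counts of passing members below stand.

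**Figure D1:**
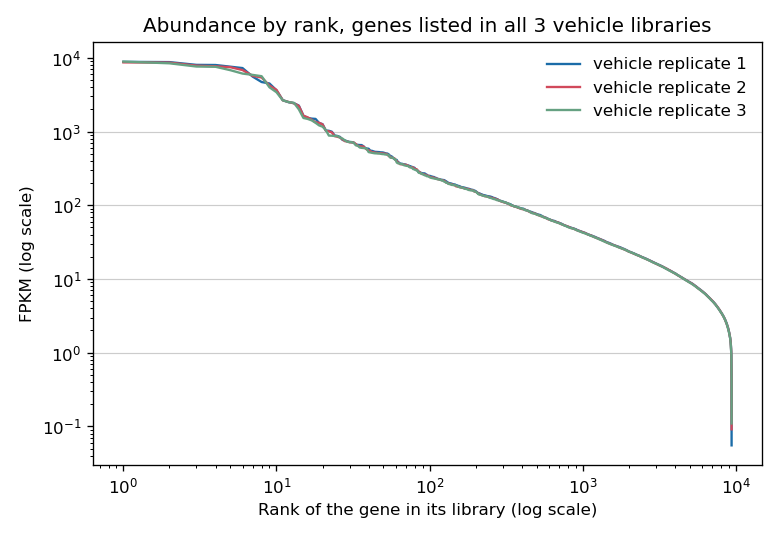
FPKM of each gene (log scale) against its rank in its own library (log scale) for the genes listed in all 3 vehicle libraries, with 1 line per library and grey lines at FPKM 1, 10, 100 and 1000. The 3 lines lie on each other over most of their length, and 21 genes had a mean of at least 1000.

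Mitochondrially encoded genes, which code for respiratory chain subunits and the RNAs that translate them, were the most abundant group. The 20 of them among the common genes held 25.0% ± 0.501 of the summed FPKM. Their counts were only 6.26% to 6.51% of the library totals, since FPKM divides by gene length. MT-CO1, a subunit of cytochrome c oxidase, had an FPKM of 8835, 8691 and 8908 in vehicle replicates 1, 2 and 3. MT-CO2, a further subunit of the same enzyme, had 8765, 8629 and 8441. MT-CO1 was the higher of the pair in each library, although their ranges over the 3 libraries overlapped. Of the 20 highest genes 14 were mitochondrial. Small RNAs in this range, MT-TC at 1345 ± 183 and RN7SL2 at 5334 ± 591, come from genes of 66 and 300 bases, so their levels rest on a short length and are uncertain.

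The nuclear genes among the 20 highest, other than RN7SL2, were MT2A, TMSB10, EEF1A1, ACTB and FTL. MT2A, a metallothionein that binds zinc and other metals, had an FPKM of 2506, 2522 and 2513 in vehicle replicates 1, 2 and 3. TMSB10, which encodes the actin-binding peptide thymosin beta 10, had 1499, 1561 and 1484. EEF1A1, the elongation factor that brings tRNA to the ribosome, had 1486, 1446 and 1419. MT2A stood above TMSB10 and TMSB10 above EEF1A1 in each library, and only the ranges of the latter pair overlapped. ACTB, cytoplasmic actin, had 1312 ± 5.18 and FTL, the ferritin light chain, 1242 ± 26.1, with no overlap between them. The cytosolic ribosomal protein genes, 80 in number, held 6.57% ± 0.0706 of the summed FPKM. Just below the 20 highest stood GAPDH at 1035 ± 13.1, the chaperone HSP90AB1 at 870 ± 1.74, the actin binder PFN1 at 794 ± 31.0, the YAP target CYR61 at 718 ± 3.12 and the chromatin protein HMGA1 at 593 ± 3.60.

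The bases upstream of these abundant nuclear genes are shown because they carry the core promoter of the genes with the most mRNA in these cells. The 250 bases before the RefSeq start (GRCh38.p14, 5′ to 3′ in the sense of the gene) are given for MT2A (chr16:56608334-56608583, plus strand), TMSB10 (chr2:84905406-84905655, plus strand) and EEF1A1 (chr6:73521033-73521282, minus strand), with TATAAA in capitals where it begins between 40 and 20 bases before the start.
MT2A: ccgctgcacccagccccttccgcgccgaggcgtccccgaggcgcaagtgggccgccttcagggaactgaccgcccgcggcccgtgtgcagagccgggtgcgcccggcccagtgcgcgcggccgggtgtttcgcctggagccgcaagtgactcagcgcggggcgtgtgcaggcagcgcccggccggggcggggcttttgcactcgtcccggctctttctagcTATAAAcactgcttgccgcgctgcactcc
TMSB10: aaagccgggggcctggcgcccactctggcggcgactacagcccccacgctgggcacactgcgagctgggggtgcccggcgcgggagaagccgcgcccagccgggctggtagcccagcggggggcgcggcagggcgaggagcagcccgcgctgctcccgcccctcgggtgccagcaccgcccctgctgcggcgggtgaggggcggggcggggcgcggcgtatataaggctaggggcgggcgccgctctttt
EEF1A1: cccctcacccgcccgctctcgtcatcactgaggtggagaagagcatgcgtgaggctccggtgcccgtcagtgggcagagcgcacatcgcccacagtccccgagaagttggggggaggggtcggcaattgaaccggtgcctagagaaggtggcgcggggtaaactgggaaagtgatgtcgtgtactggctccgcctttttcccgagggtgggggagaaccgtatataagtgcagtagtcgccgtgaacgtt
TATAAA began 29 bases before the start of MT2A and was not found in this window of TMSB10 or EEF1A1.

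TATAAA on the sense strand in that window was found for 21 of 253 matched protein-coding genes at a mean FPKM of 100 or more (8.30%), against 64 of 3532 at 10 to 100 (1.81%) and 80 of 4894 at 1 to 10 (1.63%). Over all 35116 windows of the RefSeq table the share was 2.30%. This share is per window, so it is not on the same scale as the shares per gene. Genes with an FPKM of at least 1 in every library that lists them were used, other than those on chromosome 8, and 85.7% of them had a promoter in the table. A gene counts once if any of its starts holds the motif. Besides MT2A, the 21 genes included IGFBP4 at 518, RPLP0 at 510, EEF2 at 437, DUSP1 at 247, DKK1 at 180, ID1 at 172, TFRC at 166 and ATF4 at 112.

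The shorter motif TATAA was searched only after the TATAAA result and the printed sequences had been seen, where it stands 30 bases before the start of TMSB10 and 28 before that of EEF1A1. Its shares were 17.4%, 3.40% and 2.90% of genes in the same order of levels, and 3.91% of all windows, again per window and not per gene. The order of the levels is the same for both motifs, but the larger share belongs to the motif chosen with the sequences in view. Of the 4 motifs searched, the remaining pair differed little between levels. GGGCGG on either strand of the 250 bases was found for 78.7%, 78.2% and 76.3% of genes, and CCAAT on either strand for 45.5%, 42.3% and 41.7%, from the highest to the lowest level. A match is a run of letters and not a measured binding site, and no test was made.

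Of the receptors that define the triple-negative class, ESR1 and PGR were near 0 and ERBB2 was expressed. ESR1, which encodes oestrogen receptor alpha, had 3 counts in vehicle replicate 1, an FPKM of 0.0127 with an exact 95% Poisson interval of 0.00261 to 0.0371. PGR, the progesterone receptor gene, had 9 counts and an FPKM of 0.0342. These intervals cover counting error only, and neither gene is listed for the other libraries. ERBB2 (ENSG00000141736, chromosome 17, 39687914 to 39730426), the gene of the HER2 receptor, had an FPKM of 9.18, 9.52 and 9.50. This was about the median of the common genes, 9.74 ± 0.0503, of which only 48 were under an FPKM of 1. The median protein-coding gene of vehicle replicate 1 was lower, at 3.67. ESR2 had 0.464 and 0.510 in vehicle replicates 1 and 3, and GRB7, the neighbour of ERBB2 in its amplicon, had 0.521 and 0.856. Only ERBB2 of the 7 genes in this list reached an FPKM of 1.

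Of 22 listed luminal genes 10 reached an FPKM of 1. The simple epithelial keratin KRT18 had an FPKM of 75.1, 72.4 and 76.9, and its partner KRT8 had 68.8, 67.7 and 69.1. KRT19 followed at 28.9 ± 1.51 and the EGFR ligand AREG at 23.6 ± 1.82. Luminal transcription factors ranged widely, from XBP1 at 17.9 ± 0.446 to GATA3 at 1.24 and 1.45 and FOXA1 at 0.426 and 0.350 in vehicle replicates 1 and 3. TBX3 was at 0 counts in both.

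Basal genes were present in part. Of 22 listed members 6 reached an FPKM of 1, led by the laminin chain LAMB3 at 45.1 ± 0.629 and the 14-3-3 sigma gene SFN at 39.8 ± 1.59. The basal transcription factor FOXC1 had 6.92 ± 0.133. TP63 had 1 count and KRT17 had 2 counts in vehicle replicate 1. KRT5, KRT14, KRT6A, KRT6B, KRT16 and DSG3 are not listed in these libraries and have no value here.

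Mesenchymal genes had the highest median of the lineage lists, all of which were chosen with earlier results of these data known. Of 43 listed members 32 (74.4%) reached an FPKM of 1, against 66.3% of protein-coding genes, and 5 reached 100. VIM, the intermediate filament of mesenchymal cells, had an FPKM of 282, 284 and 274. MSN, which links actin to the membrane, had 241 ± 1.96, AXL 217 ± 4.75 and CNN3 131 ± 4.57. VIM exceeded FN1 by 4.37-fold to 4.57-fold in the 3 libraries. The matrix gene FN1 was at 62.7 ± 0.895 and LOXL2, a lysyl oxidase, at 52.0 ± 2.39.

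The factors that repress epithelial genes were unequal. ZEB1 had an FPKM of 12.9, 12.2 and 11.8, and ZEB2 had 0.860, 0.734 and 0.623. SNAI2 was at 8.56 ± 0.312, and SNAI1 at 1.56 and 1.58 in vehicle replicates 1 and 3. TWIST1 and TWIST2 had 0 counts in vehicle replicate 1, for which 3 counts would be an FPKM of 0.0864 and 0.0935. N-cadherin, CDH2, had 7 and 6 counts in vehicle replicates 1 and 3, so the mesenchymal list was not expressed as a whole.

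Epithelial junction genes reached an FPKM of 1 in 17 of 36 listed members, and none reached 100. CDH1, the gene of E-cadherin (ENSG00000039068, chromosome 16, 68737225 to 68835548), had 0 counts in vehicle replicate 1, which allows an FPKM of up to 0.0284 at 3 counts. The epithelial splicing factor ESRP1 had 0.0721 and 0.0834, while ESRP2 had 2.27 and 2.18. EPCAM had 5.37 and 4.82. The desmosomal cadherin DSG2 was highest at 26.4 ± 1.42, followed by AP1M2 at 22.1 ± 0.820. Desmosomal genes ranged widely, with PKP2 at 11.1 ± 0.153, DSP at 3.59 ± 0.136, and JUP at 0.758 and 0.634 in vehicle replicates 1 and 3. The tight junction gene CLDN7 was at 5.88 ± 0.0840 and CLDN4 at 3.23 ± 0.0776.

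The median mesenchymal gene exceeded the median epithelial gene by 3.27 in vehicle replicate 1 and 3.36 in vehicle replicate 3 on the log2(FPKM + 0.1) scale, over the 39 mesenchymal and 29 epithelial genes that both libraries list. Over the members listed in all 3 libraries, 31 and 10, the differences were 1.54, 1.45 and 1.48. CD44, a surface marker of mesenchymal and progenitor cells, exceeded CD24 by 11-fold and 11.1-fold in vehicle replicates 1 and 3.

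**Figure D2:**
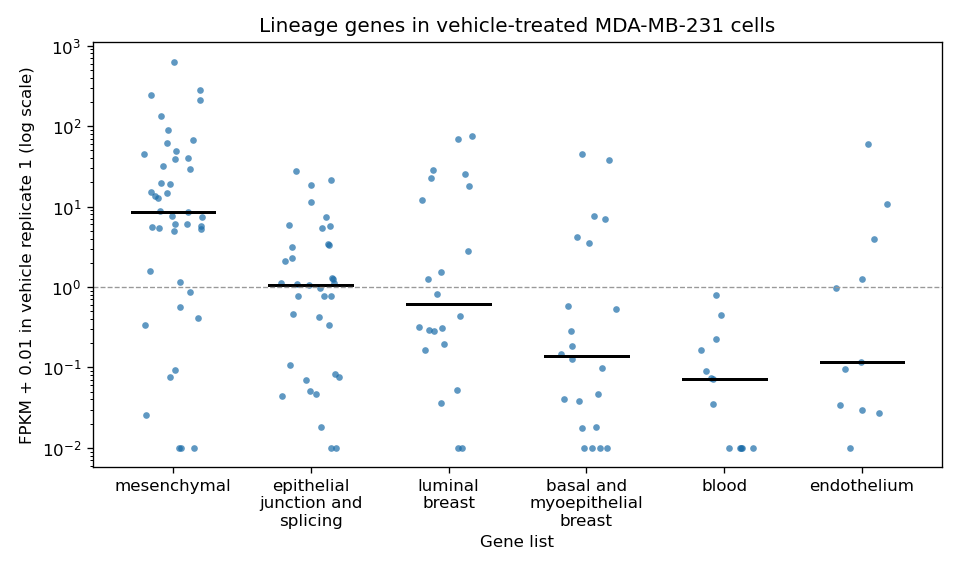
FPKM + 0.01 in vehicle replicate 1 (log scale) for the listed members of 6 gene lists, with 1 point per gene, a black bar at the median and a dashed line at FPKM 1. The mesenchymal median was 8.60, the epithelial 1.06, the luminal 0.613 and the basal 0.127, and points at the bottom are genes with 0 counts.

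Markers of other cell types were mostly absent. No blood gene of 13 listed reached an FPKM of 1, and PTPRC, the pan-leukocyte marker, had 10 counts in vehicle replicate 1. In the endothelial list 3 of 11 did, namely the junction protein gene ESAM at 61.1 ± 3.14, EGFL7 at 11.8 ± 0.939 and ROBO4 at 4.20 ± 0.369. CDH5 had 2 counts and VWF 3 in vehicle replicate 1, and PECAM1 was at 0.106 and 0.172. The endothelial receptor genes KDR, at 1.25 and 0.991, and TIE1, at 0.971 and 0.867 in vehicle replicates 1 and 3, lay near the threshold. Fibroblast and muscle genes reached the threshold in 2 of 11, PDGFRL and FBLN1, neural genes in 2 of 13, MITF and MBP, and adipocyte, liver and gut genes in 0 of 11. All 19 reference genes did.

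Receptor tyrosine kinases reached an FPKM of 1 in 22 of 54 listed members. AXL, the receptor of GAS6, had an FPKM of 212, 217 and 221. EPHA2, an ephrin receptor, had 84.9, 88.7 and 96.2. MET, the receptor of hepatocyte growth factor, had 43.0, 43.6 and 41.6, and EGFR had 42.1, 41.9 and 41.4. The order AXL, EPHA2, MET, EGFR was the same in each library, and among these neighbours only the ranges of MET and EGFR overlapped. AXL exceeded EGFR by 5.04-fold to 5.35-fold, and EGFR exceeded ERBB2 by 4.36-fold to 4.58-fold. These ratios rest on gene lengths of 5154 bases for AXL, 12521 for EGFR and 10321 for ERBB2. EPHB4 at 11.7 ± 0.526, RYK at 11.2 ± 0.434 and FGFR1 at 9.97 ± 0.277 formed the next level. Of the other EGFR family members, ERBB3 had 0.732 and 0.450 and ERBB4 had 9 counts.

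**Figure D3:**
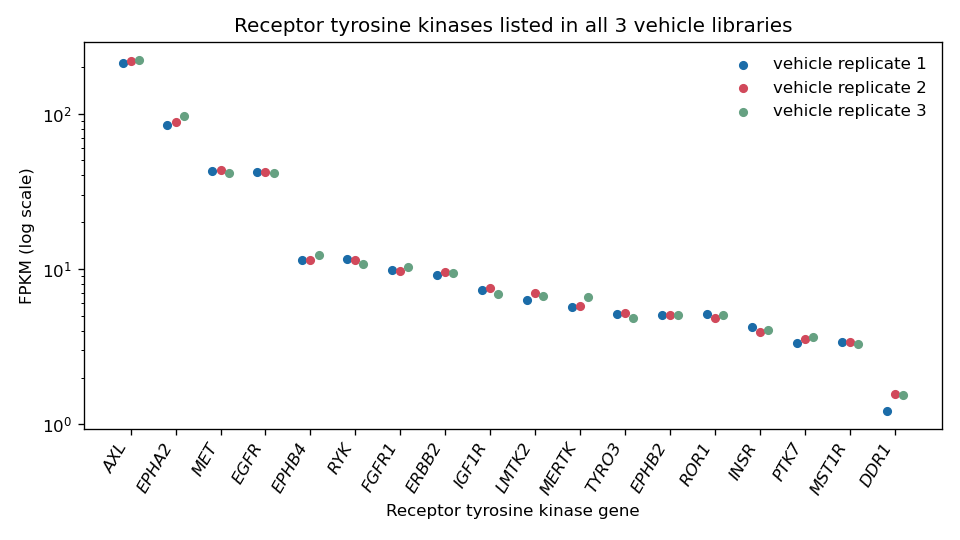
FPKM (log scale) of the receptor tyrosine kinase genes listed in all 3 vehicle libraries, ordered by mean, with 1 point per library. AXL lies between 212 and 221 in the 3 libraries, EPHA2 between 84.9 and 96.2, and MET and EGFR overlap.

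Oncogenes were broadly expressed, with 48 of 51 at an FPKM of 1 or more. The highest after HMGA1 were the GTPase gene RHOA at 249 ± 2.40, the AP-1 subunit FOSL1 at 244 ± 9.23, the survival gene MCL1 at 161 ± 1.91 and the GTPase gene RAC1 at 132 ± 9.28. FOSL1 had 238, 239 and 254, and exceeded JUN, its dimer partner, by 4.09-fold to 4.28-fold. CCND1, cyclin D1, was at 115 ± 0.398 and MYC at 74.1 ± 1.89, while MYCN had 0 counts in vehicle replicate 1. Among the RAS genes HRAS was at 56.6 ± 2.96 and NRAS at 24.9 ± 0.364, without overlap. BRAF was at 1.78 ± 0.136.

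Tumour suppressors reached an FPKM of 1 in 45 of 50. TGFBR2, the type II TGF-beta receptor gene, was highest at 78.0 ± 0.859. The cyclin-dependent kinase inhibitor CDKN1A had 30.1 ± 0.259 and RB1 had 13.7 ± 0.612. NF2, the merlin gene, had 1.64 and 2.01 in vehicle replicates 1 and 3. Levels of mRNA do not show whether a gene carries a mutation, and no sequence variant was examined.

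CDKN2A, which encodes the inhibitors p16 and p14ARF, had 0 counts in vehicle replicates 1 and 3. It lay in a run of 5 protein-coding genes in the lists with 0 counts in every library that lists them, KLHL9, MTAP, CDKN2A, CDKN2B and ELAVL2, from 21329671 to 23826337 on chromosome 9 (2.50 Mb). MTAP, an enzyme of methionine salvage, was also at 0 in both libraries, for which 3 counts would be an FPKM of 0.0120. On the side toward the end of the short arm, FOCAD had 0.373 and 0.347 and MLLT3 had 2.53 ± 0.0865. On the other side, TUSC1 had 5.18 ± 0.399 and CAAP1 11.5 ± 0.289. DNA copy number was not measured here.

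**Figure D4:**
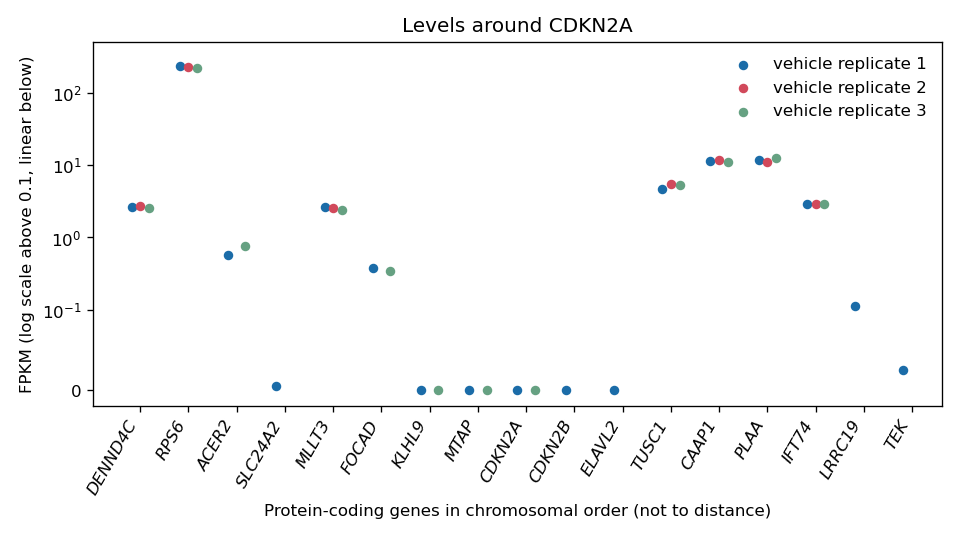
FPKM (log scale above 0.1, linear below) of the listed protein-coding genes around CDKN2A in chromosomal order, with 1 point for each vehicle library that lists the gene. The 5 genes from KLHL9 to ELAVL2 are at 0, and CAAP1 lies between 11.2 and 11.8.

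Transcription factor families differed in how many members were on. By the family given in the gene lists, 853 of 1341 transcription factors (63.6%) reached an FPKM of 1. All 10 E2F family members did, against 33 of 134 homeobox genes, 2 of 12 T-box genes and 0 of 7 PAX genes. Of the 35 listed HOX genes HOXB9 alone passed in every library that lists it, with 9.37, 8.81 and 8.03, and 15 were at 0 counts. HOXD4 had 0.840 and 1.27 in vehicle replicates 1 and 3, and without vehicle replicate 1 the count was 2. The highest factors were HMGA1, the cold shock protein YBX1 at 452 ± 18.1, FOSL1 and the zinc finger protein CNBP at 203 ± 5.30. ID1, an inhibitor of bHLH factors, was at 172 ± 2.10, the hypoxia factor HIF1A at 125 ± 2.97 and ATF4, a factor of the stress response, at 112 ± 2.82.

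Nuclear receptors reached an FPKM of 1 in 22 of 43 listed members. ESRRA, an orphan receptor of energy metabolism, had 29 ± 0.302, the liver X receptor NR1H2 27.7 ± 1.11 and NR2F2 25.2 ± 0.60. The glucocorticoid receptor NR3C1 had 13.1 ± 0.610 and PPARG 8.57 ± 0.544.

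G protein-coupled receptors did so in 28 of 54. GPRC5A was highest at 49.2 ± 0.179, followed by ADGRE5 at 39.4 ± 0.815, the protease-activated receptor F2RL1 at 34.2 ± 1.17 and the adenosine receptor ADORA2B at 29 ± 0.909. CNR1, which encodes CB1, the receptor that rimonabant antagonises, had 6, 10 and 12 counts and an FPKM of 0.0854 ± 0.0276. CNR2, the gene of the second cannabinoid receptor, had 4 counts in vehicle replicate 1. The chemokine receptor gene CXCR4 had 1 count there.

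PBXIP1 (ENSG00000163346, chromosome 1, 154944076 to 154956123), the gene of the PBX-interacting protein HPIP that the study screened against, had an FPKM of 8.47, 8.03 and 8.85. PBXIP1 ranked 5257 among the 9398 common genes, of which only 48 were under an FPKM of 1. PBX2, a homeobox factor of the PBX family, had 20.1 ± 0.392.

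Genes of immune recognition reached an FPKM of 1 in 20 of 26. LGALS1, a secreted galectin, was at 414 ± 5.41 and NT5E, the ectonucleotidase CD73, at 129 ± 3.25. HLA-E had 69.9 ± 1.34 and PVR, the poliovirus receptor bound by TIGIT, 55.1 ± 0.791. CD274, the gene of PD-L1, had 8.0, 7.42 and 7.58, and CD276 had 8.83 ± 0.537. IDO1 had 0 counts in vehicle replicate 1. Antigens used as antibody targets passed in 12 of 20, with the transferrin receptor TFRC at 166 ± 4.51, tissue factor F3 at 69.5 ± 2.15 and MSLN at 7.71 ± 0.393.

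Cancer testis genes passed in 4 of 12 listed members. The other 18 of the 30 genes chosen, MAGEA1, MAGEA4, CTAG1B and SSX2 among them, are not listed in these libraries and have no value here. SPANXB1, a sperm protein gene of the X chromosome, had 120, 112 and 110, the kinesin gene KIF2C had 26.1 ± 1.49, and MAGEC2 had 3.56 and 2.83. XAGE1B had 2.19, 17.3 and 16.3, so that vehicle replicate 1 lay far below the others. SPANXB1 and XAGE1B have close copies. Of these, XAGE1A had 37 and 30 counts in vehicle replicates 1 and 3, and SPANXA1 had 1 and SPANXD 0 in vehicle replicate 1. Whether reads were split or lost among the copies was not tested, and the levels of SPANXB1 and XAGE1B are uncertain.

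Spread between the libraries was near counting noise for genes with few reads. The median coefficient of variation (CV) was 4.94% for genes at a mean FPKM of 1 to 10, 3.36% at 10 to 100 and 2.57% at 100 or more, against 4.42%, 2.50% and 1.07% from counting noise alone. The common biological coefficient of variation estimated by edgeR was 0.0354. No pair of libraries agreed within sampling noise, with a chi-square per degree of freedom of 2.11 to 4.21. Of the 4608 genes at a mean of at least 10, 79 had a CV above 10% and 4 above 20%. The latter were XAGE1B at 70.8%, the pseudogene DHFRP1 at 41%, CHCHD10 at 20.5% and the pseudogene AC004057.1 at 20.3%. DHFRP1 had 467, 425 and 193 counts. The next in order were ATP5MG, BRI3, THOC3, RPL7AP6, SAP30 and C4orf48, with a CV of 14.7% to 18.3%.

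**Figure D5:**
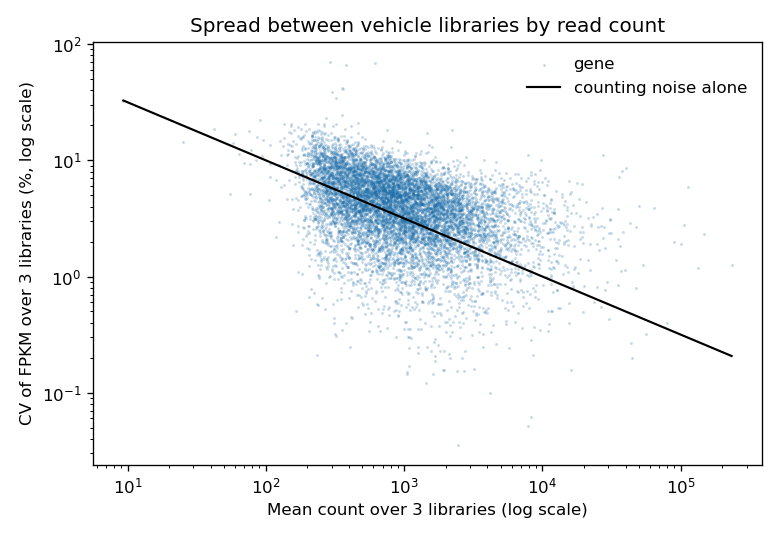
CV of FPKM over the 3 vehicle libraries (percent, log scale) against the mean count (log scale), with 1 point per gene and a black line for counting noise alone. Genes with many reads lie above the line, with a median CV of 2.57% against 1.07% at an FPKM of 100 or more, and XAGE1B and DHFRP1 are among the highest points.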

How the data were processed

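RNA was extracted with Trizol, selected with oligo(dT) and sequenced on an Illumina platform. The authors deposited for each gene a count of reads without normalization, and beside it an FPKM value, the count divided by gene length and a library total. The submitters' processing notes name HISAT2 2.0.5 and featureCounts 1.5.0-p3. The genome build is not given in the sources used here, but 27127 of 27130 genes have the coordinates of GENCODE release 29 (GRCh38). This total was computed back from the deposited columns. In vehicle replicates 1 and 3 the listed counts exceed it. Whether counting used the strand is not given in the sources used here, so overlapping genes, antisense genes and close copies are uncertain. Each gene list stops in the middle of its last line, whose count and FPKM are complete. Treated samples were not used, and some list members are not reported here.

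The members and the 22 gene lists were chosen with earlier results of these data known. A list member passes when its FPKM is at least 1 in every library that lists it. Named genes were the 20 highest by mean FPKM, the 10 with the highest CV at a mean of at least 10, and list members. Upstream bases came from RefSeq (GRCh38.p14). TATAAA was searched first, and TATAA was added after that result and the sequences were seen. TMM factors and dispersion were computed from the counts with edgeR 4.0.16 in R 4.3.3. Other values were computed in Python 3.11.15 (scipy 1.17.1, numpy 2.4.6, pandas 2.3.3) and plots drawn by matplotlib 3.10.9. The chi-square check and edgeR steps were tested on simulated data. Exact Poisson intervals (95%) and the limit of 3 counts cover counting error only.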

Additional observations from a re-analysis of the deposited data

How the results depend on the processing

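No paired analysis was possible because the results come from 1 group and from no test. Over 34 results and 17 alternative settings, 220 of 248 values stayed within the limits set. The limits were 1.5 times for counts and the median CV, and 1 SD between libraries for shares and the mesenchymal minus epithelial difference. Only that difference was checked for a change of sign, and it kept its sign. Shares of the summed FPKM could not change with TPM or TMM factors, which scale all genes of a library alike. Leaving out each library moved the number of HOX genes, from 1 to 2 without vehicle replicate 1. The other counts and the median CV stayed within those limits. Shares and the mesenchymal minus epithelial difference could not have passed them, since leaving out 1 library shifts such a mean by less than 1 SD. Leaving out a library was not run for the promoter motif. TPM over the common genes raises every level by a common factor, and gave 8410, 1543 and 83 genes at 10, 100 and 1000 or more. It also raised the counts to 3 for the list of steroid hormone receptors and ERBB2, and to 8 for HOX. The counts of other lineages rose to 2 for blood, 5 for endothelium, 5 for fibroblast and muscle and 1 for adipocyte, liver and gut. A threshold of 0.5 gave 7 HOX, 1 blood and 5 endothelial genes, and a threshold of 2 gave 1 fibroblast and muscle gene. In the list of steroid hormone receptors and ERBB2, a threshold of 0.5 gave 2 genes. These were ERBB2 and GRB7, and neither is a steroid hormone receptor. With mitochondrial genes left out, 7 genes were at 1000 or more, the 10, 100 and 1000 highest held 7.70%, 23.3% and 56.7% of the summed FPKM, and 6 of the 20 highest genes stayed among the 20 highest. With protein-coding genes only, the 100 and 1000 highest held 39.5% and 66.2%, and mitochondrial genes 24.0%. The mesenchymal minus epithelial difference, 3.32 as a mean of vehicle replicates 1 and 3, was 2.63 with a pseudocount of 1, 3.41 with 0.01, 1.49 over members listed in all 3 libraries and 2.61 with the mean in place of the median. TATAA in place of TATAAA, chosen after seeing the data, moved the share of genes at FPKM 100 or more from 8.30% to 17.4%.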
